A study of Mus musculus with 12 samples.

Results

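Liver libraries of male C57BL/6J mice were separated by how much Dbp mRNA they held. Dbp encodes a transcription factor of the circadian clock output, and its mRNA is among the most strongly daily-varying transcripts of the mouse liver. A library was named Dbp-high when its Dbp level exceeded 20 CPM (the usual depth-scaled count unit), taken over its total count, which held for 4 of the 12 libraries, and Dbp-low otherwise, which held for 8. The members were therefore chosen by a measured value, and every difference between Dbp-high and Dbp-low libraries below is a description with no test. Neither the labels nor the methods give the time of tissue collection, so the libraries are called by their Dbp level and not by a time of day. The lowest Dbp-high library had 45.9 Dbp CPM of total counts, and the highest Dbp-low library had 4.20.

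The mice were 7 weeks old when the diets began and received chow or a choline-deficient, amino acid-defined high fat diet (CDAHFD) freely for 6 weeks, in housing with a light period longer than the dark period. All carried floxed Ppara alleles: the knockouts (KO, PPARafl/fl AlbuminCreTg/+) also carried a Cre transgene under the Albumin promoter, which deletes in hepatocytes and leaves Ppara intact in the other liver cells, and the wild types (WT, PPARafl/fl AlbuminCre+/+) lacked the transgene. WT chow gave 4 libraries, 2 of them Dbp-high (replicates 3 and 4), and KO chow gave 2, of which replicate 2 was Dbp-high. Of the 3 KO CDAHFD libraries replicate 3 was Dbp-high, and the 3 WT CDAHFD libraries were all Dbp-low. Total counts ran from 29906785 to 43551003 reads, the Dbp-high libraries holding 29906785 to 40201211, and 17358 genes had enough counts to be compared. Expression is given below as CPM of the TMM-scaled library, Dbp-low libraries before Dbp-high ones. The fitted log2 difference is Dbp-high minus Dbp-low over the 3 groups that held both kinds, with the 4 groups as a covariate, and its standard error (SE) reflects the spread between libraries. Whole liver was sequenced, so fewer cells of a type and less RNA per cell cannot be told apart.

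The hepatic clock is a loop of transcription factors. BMAL1 (gene Arntl) pairs with CLOCK or NPAS2, binds E-boxes and activates Per, Cry, Nr1d and Dbp genes, whose PER and CRY proteins then block that activation. The nuclear receptors REV-ERBα and REV-ERBβ (Nr1d1, Nr1d2) repress Arntl, Npas2, Cry1 and Nfil3 through RORE elements, on which the ROR receptors activate. DBP, TEF and HLF, the PAR bZIP factors, activate genes with a D-box, where NFIL3 represses. In mouse liver, Arntl and Dbp mRNA are known to peak at nearly opposite phases of the day. Many metabolic genes of the liver follow these elements.

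Promoter stretches of clock genes show which of these elements lie near a RefSeq start site. They were read from RefSeq promoter windows of GRCm38.p6, which span 250 bases before to 50 bases after a start site, and 16 of the 19 clock genes named here had a window. Both strands were searched for the E-box CACGTG, the D-box TTATGTAA or TTACGTAA, the RORE core TAGGTCA, the cAMP response element TGACGTCA and the heat shock element GAANNTTC. Of all 32851 windows, 7.15% held the E-box, 1.06% a D-box, 2.61% the RORE core, 1.79% the cAMP response element and 7.86% the heat shock element. The stretches below run 5′ to 3′ in the direction of the gene, with the matched letters in capitals. A match describes the letters and is not a measured binding site.

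The following 5 stretches of Ciart, Tef, Per1, Bhlhe41 and Cry1 are shown because each holds the E-box bound by BMAL1, in Ciart 3 times within 118 bases. Each lies before a start site of RefSeq, but by GENCODE M21 the Per1 and Tef stretches lie inside the gene, the Tef stretch within an exon, and the Bhlhe41 and Ciart stretches overlap the gene by 11 and 5 bases.
Ciart (chr3:95882247-95882364, minus strand): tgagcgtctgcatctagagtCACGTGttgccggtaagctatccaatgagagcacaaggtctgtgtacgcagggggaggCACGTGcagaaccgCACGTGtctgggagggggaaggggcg
Tef (chr15:81802534-81802563, plus strand): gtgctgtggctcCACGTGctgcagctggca
Per1 (chr11:69098763-69098808, plus strand): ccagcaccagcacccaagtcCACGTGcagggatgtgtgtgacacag
Bhlhe41 (chr6:145865548-145865593, minus strand): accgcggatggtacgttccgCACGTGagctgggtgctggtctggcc
Cry1 (chr10:85185089-85185134, minus strand): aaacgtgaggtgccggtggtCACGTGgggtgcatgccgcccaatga

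Per3 and Coq10b, whose stretches lie outside the gene in both annotations, are shown for the D-box, which Per3 holds at 2 places. In Coq10b the D-box is read on the opposite strand, and an E-box follows it.
Per3 (chr4:151044796-151044890, minus strand): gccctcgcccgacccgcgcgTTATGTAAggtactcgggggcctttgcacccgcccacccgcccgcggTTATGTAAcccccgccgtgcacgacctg
Coq10b (chr1:55052588-55052717, plus strand): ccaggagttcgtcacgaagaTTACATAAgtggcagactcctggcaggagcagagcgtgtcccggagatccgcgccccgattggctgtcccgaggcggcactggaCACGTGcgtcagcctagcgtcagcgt

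Nfil3 and Arntl are shown for the RORE core, on the opposite strand in Nfil3. Both stretches of 30 bases lie within an exon by GENCODE M21, that of Arntl after the RefSeq start site and that of Nfil3 across it.
Nfil3 (chr13:52981033-52981062, minus strand): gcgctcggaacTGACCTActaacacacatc
Arntl (chr7:113207530-113207559, plus strand): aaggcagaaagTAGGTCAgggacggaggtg

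No motif was found in the windows of Dbp, Nr1d1, Nr1d2, Cry2, Npas2 and Clock, which says only that these letters are not there. Per2 and Bhlhe40 had no window.

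Across the genome, few genes separated the libraries as Dbp did. A gene was counted as higher when each Dbp-high library exceeded each Dbp-low library of its own group in WT chow, KO chow and KO CDAHFD and the fitted log2 difference was at least 1, and as lower in the reverse case. By this rule 144 genes (0.83% of those compared) were higher and 160 (0.922%) were lower. Of these, 36 higher and 57 lower genes had a mean of at least 10 CPM, as did 8812 (50.8%) of all genes compared. Most counted genes were thus less abundant than that, and the shares of all genes compared that are given below include them. Without the limit on size, 1583 genes (9.12%) stood apart upward in all 3 groups and 1546 (8.91%) downward. Both counts changed when 1 library was left out. They were 226 and 203 without WT chow replicate 2. For KO chow they were 245 and 254 (replicate 1 left out) or 226 and 258 (replicate 2 left out), and without KO CDAHFD replicate 3 they were 240 and 401. The last 3 fits leave only the other groups to the rule, and leaving out a WT chow library leaves it fewer libraries to separate. A higher count therefore does not by itself show dependence on 1 library. KO chow has a single library of each kind and KO CDAHFD a single Dbp-high library, so in those groups a difference between kinds cannot be told apart from one between mice.

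Dbp itself (ENSMUSG00000059824, chromosome 7 from 45705088 to 45710203) had 0.388 and 0.472 CPM against 130.3 and 85.9 in WT chow, 1.25 against 44.8 in KO chow and 2.74 and 3.34 against 117 in KO CDAHFD. The WT CDAHFD libraries had 3.75, 2.16 and 1.62 CPM. These values set the grouping, and the fitted log2 difference was 6.10 (SE 0.42). Dbp shares exonic sequence with Sphk2, which had 191% as many counts, and the libraries do not record strand, so reads in the overlap cannot be assigned.

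Arntl ran opposite to Dbp. Arntl (ENSMUSG00000055116, chromosome 7 from 113207465 to 113314126) had 46.00 and 48.6 CPM against 5.30 and 5.73 in WT chow, 45.2 against 15.4 in KO chow and 36.4 and 35.7 against 2.88 in KO CDAHFD. The WT CDAHFD libraries had 25.6, 35.6 and 34.9 CPM. Within each group the kinds did not overlap, and the 4 Dbp-high libraries were the 4 lowest of all 12, with a fitted log2 difference of -2.85 (SE 0.27). The KO chow Dbp-high library, which also had the lowest Dbp of the 4, kept the highest Arntl among them.

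Among the activating limb of the clock (among them Arntl, Npas2, Clock, Cry1, Nfil3 and Rora, a list that also holds the genes driven by RORE elements), 4 of 7 genes were lower and none was higher, against 0.922% and 0.83% of all genes compared, and the median log2 difference was -1.76, against -0.0075 over all genes compared. Npas2, the partner that can replace CLOCK, had 12.6 and 17.8 CPM against 0.533 and 0.367 in WT chow, 14.8 against 2.62 in KO chow and 11.8 and 11.2 against 1.67 in KO CDAHFD. Its fitted log2 difference was -3.46 (SE 0.38), the most negative of the list, with the Dbp-high libraries below the others in each group. Nfil3, the repressor at D-boxes, had 128 and 96.7 CPM against 23.9 and 27.8 in WT chow, 64.2 against 37.03 in KO chow and 33.4 and 35.1 against 6.99 in KO CDAHFD, a log2 difference of -1.86 (SE 0.24). Cry1, a repressor that nevertheless follows Arntl in phase because of its RORE elements, had 31.7 and 32.7 CPM against 10.6 and 7.75 in WT chow, 28.7 against 7.18 in KO chow and 13.02 and 14.2 against 4.76 in KO CDAHFD. Its log2 difference was -1.76 (SE 0.15), and in WT CDAHFD it had 9.08, 14.5 and 12.04 CPM, nearer to the Dbp-high than to the Dbp-low libraries of WT chow.

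Clock and Rora differed little on the log2 scale. Clock had 90.9 and 84.5 CPM against 83.3 and 76.00 in WT chow, 51.5 against 56.3 in KO chow and 51.03 and 45.96 against 29.7 in KO CDAHFD, a log2 difference of -0.24 (SE 0.12). Its KO CDAHFD Dbp-high library was the lowest of the 12, while in KO chow the Dbp-high library was the higher of the pair. Rora, an activator at RORE elements, was slightly lower in the Dbp-high libraries of each group, by -0.16 (SE 0.09), below the limit of 1.

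**Figure D1:**
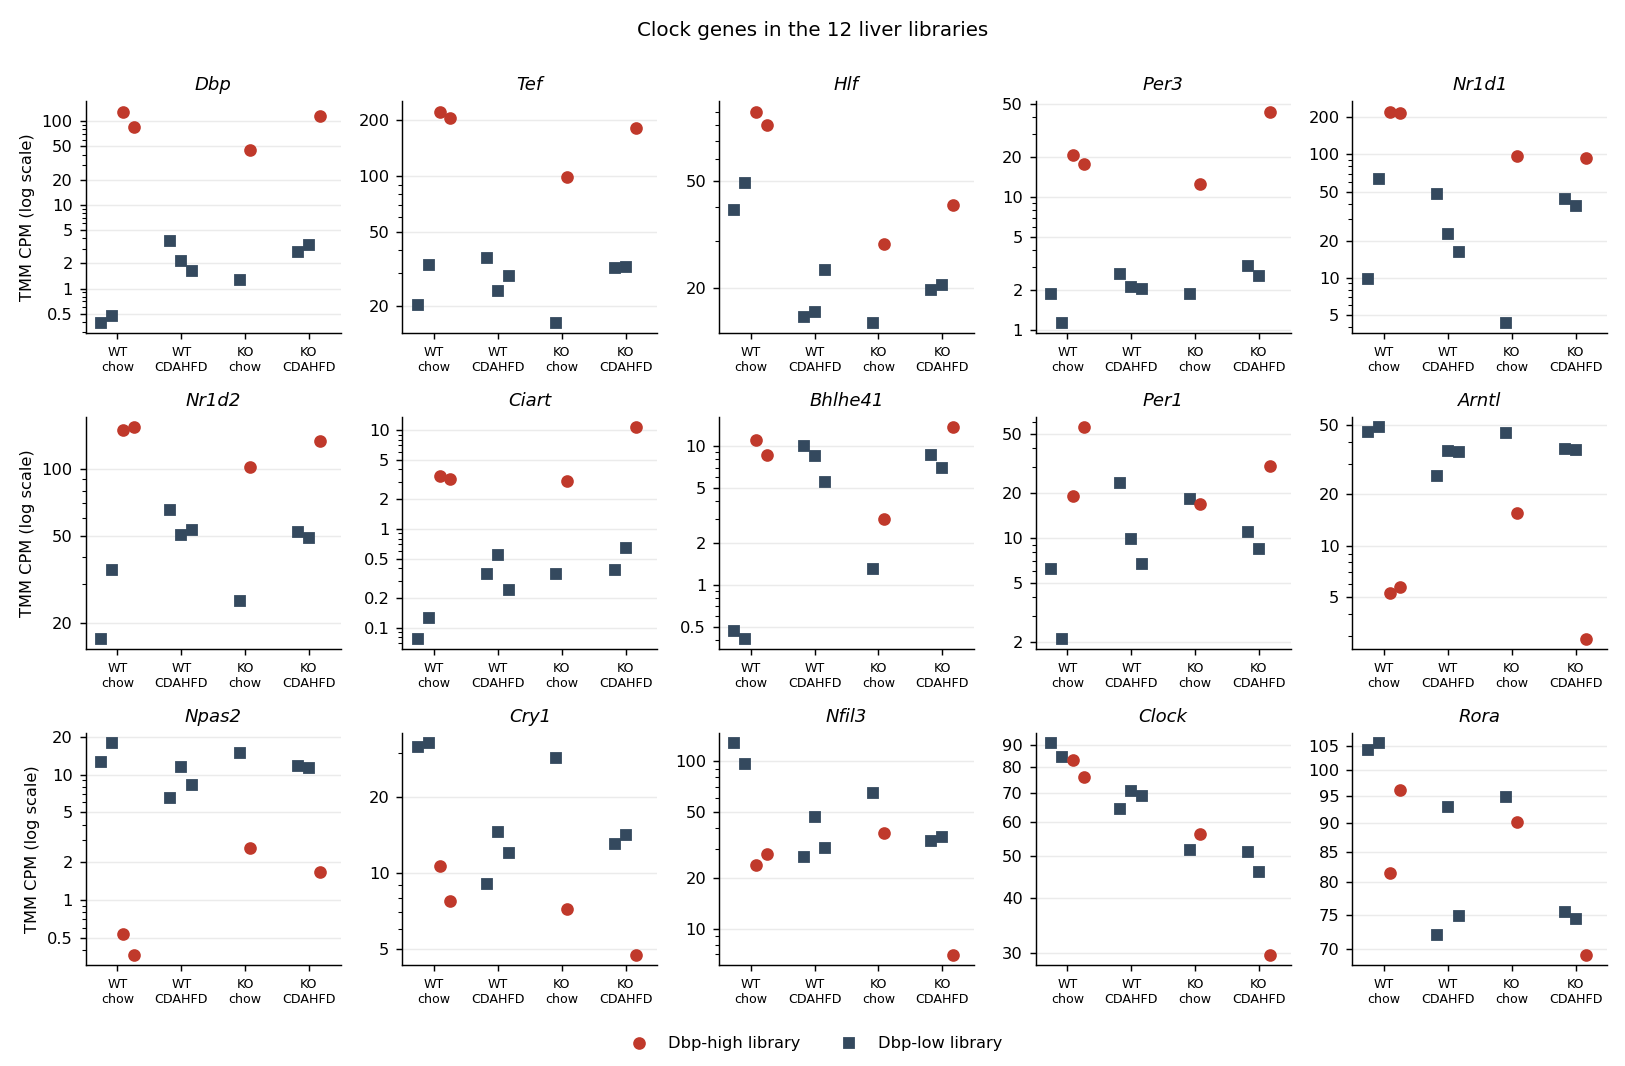
Expression of 15 clock genes in each of the 12 libraries, as TMM CPM on a log axis, with the 4 groups on the horizontal axis, Dbp-high libraries as red circles and Dbp-low libraries as dark squares. Tef and Per3 sit above every Dbp-low library in the Dbp-high libraries and Arntl and Npas2 below, whereas Clock and Per1 take the reverse order in KO chow.

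Of the repressing limb (Per1, Per2, Per3, Cry2, Nr1d1, Nr1d2, Ciart, Bhlhe40 and Bhlhe41), 6 of 9 genes were higher and none was lower, against 0.83% and 0.922% of all genes compared, all 9 fitted differences were positive, and their median was 2.09. Per3, a period gene with 2 D-boxes in the stretch above, had 1.86 and 1.13 CPM against 20.8 and 17.7 in WT chow, 1.88 against 12.7 in KO chow and 3.03 and 2.54 against 44.2 in KO CDAHFD. The WT CDAHFD libraries had 2.66, 2.12 and 2.05 CPM, so the 4 Dbp-high libraries were the 4 highest of the 12, with a log2 difference of 3.59 (SE 0.20). Ciart, a repressor of the CLOCK-BMAL1 complex with 3 E-boxes in its stretch, had 0.0776 and 0.126 CPM against 3.40 and 3.17 in WT chow, 0.353 against 3.03 in KO chow and 0.388 and 0.642 against 10.6 in KO CDAHFD. It was the least abundant clock gene, with 2 to 447 counts per library, and the counting error of its Dbp-low values is large. Its fitted difference of 4.20 (SE 0.32) was the largest of the list.

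Both REV-ERB genes were higher. Nr1d1 had 9.71 and 63.7 CPM against 223 and 216 in WT chow, 4.30 against 96.3 in KO chow and 43.2 and 38.5 against 94.4 in KO CDAHFD, a log2 difference of 2.58 (SE 0.58). The Dbp-low libraries were far from each other, from 4.30 CPM in KO chow to 63.7 CPM in WT chow replicate 2, and the KO CDAHFD pair stood 2.31 times below the Dbp-high library. Nr1d1 shares exonic sequence with Thra, which had 28.4% as many counts. Nr1d2 had 17.00 and 34.9 CPM against 151 and 155 in WT chow, 25.3 against 102 in KO chow and 51.8 and 48.6 against 134 in KO CDAHFD, with a smaller spread and a log2 difference of 2.09 (SE 0.22).

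The repressors DEC1 and DEC2 (Bhlhe40, Bhlhe41) differed mainly within WT chow. Bhlhe41 had 0.466 and 0.409 CPM against 11.1 and 8.58 in WT chow, 1.30 against 2.98 in KO chow and 8.56 and 6.90 against 13.6 in KO CDAHFD. The WT CDAHFD libraries had 10.1, 8.49 and 5.46 CPM, within the range of the Dbp-high libraries although they are Dbp-low. Bhlhe40 had 56.8 and 33.6 CPM against 235 and 279 in WT chow, 79.3 against 90.9 in KO chow and 78.6 and 73.5 against 109 in KO CDAHFD, so that its log2 difference of 1.38 (SE 0.37) rests largely on WT chow.

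The remaining period and cryptochrome genes fell outside the rule. Per1, which also responds acutely to hormones and feeding, had 6.17 and 2.11 CPM against 19.1 and 55.3 in WT chow, 18.2 against 16.8 in KO chow and 10.96 and 8.39 against 30.2 in KO CDAHFD. The Dbp-high library was the lower of the pair in KO chow, opposite to the other groups, and the fitted log2 difference was 1.91 (SE 0.58). Per2 had 15.6 and 14.6 CPM against 19.6 and 22.4 in WT chow, 6.91 against 8.17 in KO chow and 8.95 and 8.58 against 33.7 in KO CDAHFD, with a log2 difference of 0.92 (SE 0.23) and its highest value in KO CDAHFD replicate 3. Cry2 differed by 0.59 (SE 0.15), the Dbp-high libraries being at 1.48, 1.60 and 1.48 times the Dbp-low level in WT chow, KO chow and KO CDAHFD.

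Beside Dbp, the PAR bZIP factors Tef and Hlf were separated in all 3 groups. Tef (ENSMUSG00000022389, chromosome 15 from 81802421 to 81826863) had 20.2 and 33.4 CPM against 223 and 205 in WT chow, 16.3 against 98.8 in KO chow and 32.00 and 32.6 against 182 in KO CDAHFD. The ratio was 7.97, 6.08 and 5.64 in WT chow, KO chow and KO CDAHFD, and the fitted log2 difference was 2.75 (SE 0.16). Hlf had 38.98 and 48.9 CPM against 89.97 and 80.3 in WT chow, 14.9 against 29.03 in KO chow and 19.6 and 20.6 against 40.5 in KO CDAHFD. Its ratio was 1.94, 1.95 and 2.02 in the 3 groups, and its log2 difference of 0.97 (SE 0.12) stayed just under the limit of 1.

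Of 18 genes listed as outputs of the liver clock, 7 were higher, 7 were lower and 4 were neither, against 0.83% and 0.922% of all genes compared. The higher genes included Upp2, Gys2, Rgs16, Lpin1, Wee1 and Coq10b. Upp2, uridine phosphorylase of the liver, had 42.7 and 97.7 CPM against 212 and 453 in WT chow, 31.00 against 211 in KO chow and 23.6 and 25.9 against 162 in KO CDAHFD, a log2 difference of 2.51 (SE 0.26). In WT CDAHFD it had 28.2, 18.7 and 23.4 CPM, as low as the Dbp-low libraries of both KO groups. Gys2, the liver glycogen synthase, had 117 and 129 CPM against 288 and 336 in WT chow, 62.5 against 151 in KO chow and 65.1 and 65.3 against 187 in KO CDAHFD. Its ratio was 2.54, 2.42 and 2.86 in the 3 groups, and its log2 difference of 1.38 (SE 0.09) had the smallest SE of the 18.

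Wee1, the kinase that restrains entry into mitosis, had 2.29 and 2.08 CPM against 12.6 and 5.18 in WT chow, 8.97 against 11.8 in KO chow and 7.32 and 5.53 against 22.4 in KO CDAHFD, a log2 difference of 1.56 (SE 0.28). Coq10b, which takes part in coenzyme Q function and has the D-box and E-box shown above, had 24.3 and 11.5 CPM against 43.7 and 46.6 in WT chow, 23.6 against 25.7 in KO chow and 11.1 and 11.8 against 35.6 in KO CDAHFD. Its KO chow libraries were nearly level, and the log2 difference was 1.16 (SE 0.24). Rgs16, a regulator of G protein signalling that responds to fasting and feeding, differed by 2.10 (SE 0.62), and Lpin1, a phosphatidate phosphatase, by 1.69 (SE 0.51). Both had their highest value in WT chow replicate 4, at 219 and 315 CPM.

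The lower genes of this list were Elovl3, Chka, Cdkn1a, Ppard, Slc45a3, Insig2 and Avpr1a. Elovl3, a fatty acid elongase, had 1376 and 1292 CPM against 325 and 489 in WT chow, 119 against 16.8 in KO chow and 25.1 and 25.4 against 5.09 in KO CDAHFD. The WT CDAHFD libraries had 41.5, 53.3 and 50.1 CPM. Its level differed between groups by more than between kinds, yet within each group the Dbp-high libraries were lower, by a fitted -2.14 (SE 0.19). Chka, the choline kinase that begins phosphatidylcholine synthesis from choline, had 109 and 156 CPM against 22.9 and 31.4 in WT chow, 216 against 107 in KO chow and 202 and 188 against 42.2 in KO CDAHFD. The log2 difference was -1.97 (SE 0.21), and the Dbp-high KO chow library was close to the level of WT chow replicate 1, which is Dbp-low.

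Ppard, the PPARδ receptor gene, had 75.5 and 47.8 CPM against 7.77 and 9.04 in WT chow, 22.5 against 9.75 in KO chow and 18.6 and 17.4 against 11.8 in KO CDAHFD, a log2 difference of -1.74 (SE 0.34). In WT CDAHFD it had 12.7, 16.9 and 14.6 CPM. Cdkn1a, the cell cycle inhibitor p21, had 25.6 and 7.74 CPM against 1.83 and 1.93 in WT chow, 115 against 63.1 in KO chow and 59.5 and 54.9 against 25.00 in KO CDAHFD. The Dbp-low WT chow libraries were far apart from each other, and the fitted difference was -1.78 (SE 0.39). Insig2, which retains the SREBP activators of lipid synthesis in the endoplasmic reticulum, differed by -1.12 (SE 0.14), the vasopressin receptor gene Avpr1a by -1.02 (SE 0.16) and the transporter gene Slc45a3 by -1.13 (SE 0.20). Usp2, a deubiquitinase gene of the clock, was chosen after its values were seen: it had 2.14 and 1.48 CPM against 17.6 and 12.1 in WT chow, 7.18 against 7.13 in KO chow and 4.02 and 3.88 against 32.8 in KO CDAHFD and was not counted, because the KO chow libraries were level.

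**Figure D2:**
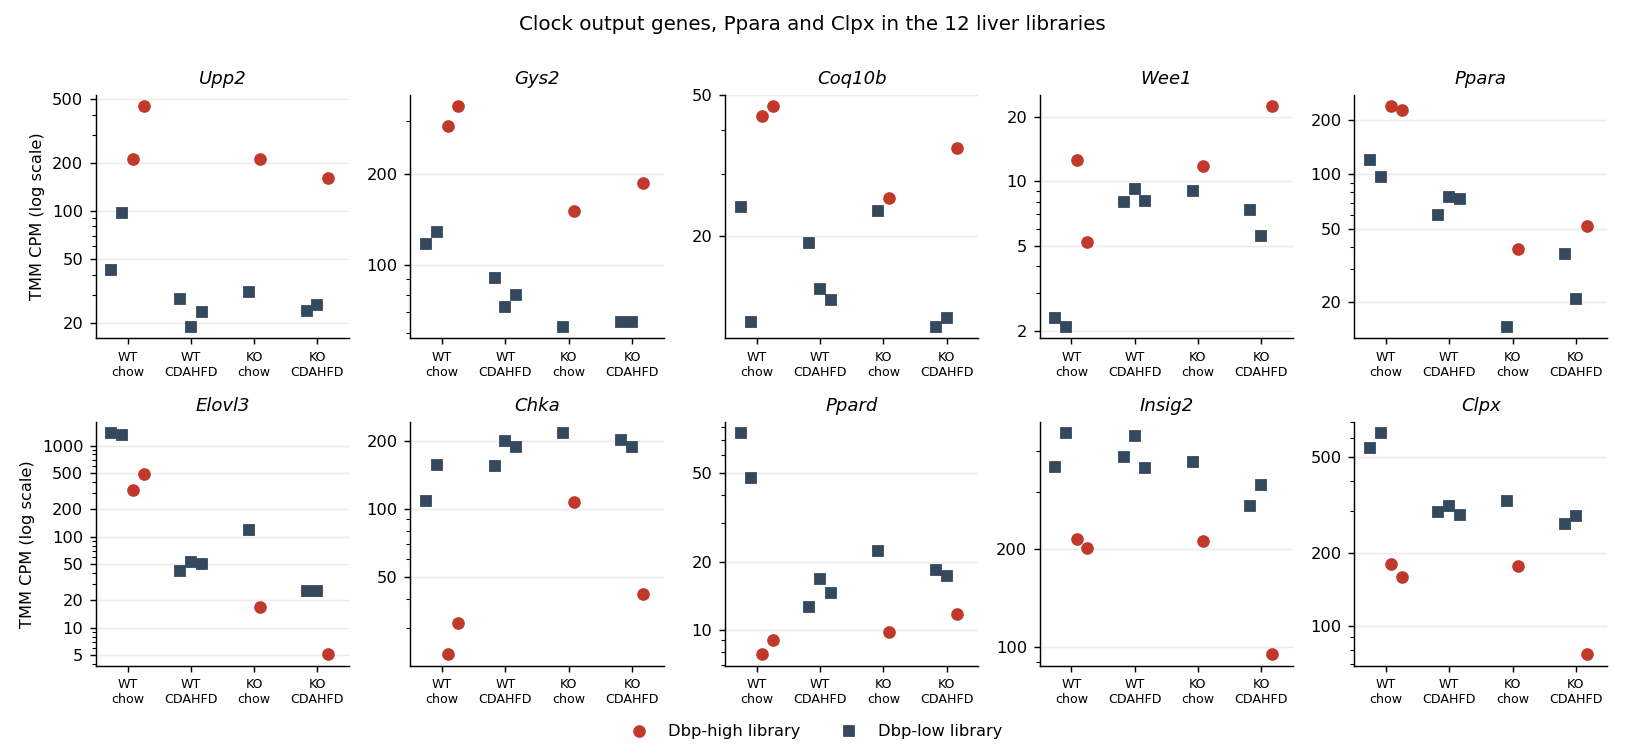
Expression of 8 clock output genes, Ppara and Clpx in each of the 12 libraries, as TMM CPM on a log axis, with Dbp-high libraries as red circles and Dbp-low libraries as dark squares. Upp2 and Gys2 lie above and Elovl3, Chka and Clpx below the Dbp-low libraries of their own group in each of the 3 groups with both kinds.

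Among 7 detoxification genes that PAR bZIP factors are known to control, 2 were higher and none was lower, against 0.83% and 0.922% of all genes compared. Por, the reductase that passes electrons to the cytochromes P450, had 109 and 97.2 CPM against 254 and 206 in WT chow, 214 against 284 in KO chow and 117 and 97.2 against 299.9 in KO CDAHFD, a log2 difference of 1.09 (SE 0.17). Cyp2a5, a coumarin hydroxylase, had 47.9 and 115 CPM against 248 and 249.9 in WT chow, 449 against 475 in KO chow and 204 and 214 against 894 in KO CDAHFD. Its log2 difference was 1.44 (SE 0.29), or 0.94 with a replicate block, though in KO chow the ratio was only 1.06, and its reads can be shared with Cyp2a4. The other 5 genes included Aldh1a1, with a difference of -0.11 (SE 0.10).

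Ppara, the deleted gene, was itself higher in the Dbp-high libraries. In a list of 12 genes, Ppara and its targets, it alone was counted in either direction, against 0.83% and 0.922% of all genes compared. The gene (ENSMUSG00000022383, chromosome 15 from 85734983 to 85802819) gave 120.1 and 96.2 CPM against 238 and 226 in WT chow, 14.4 against 38.7 in KO chow and 36.3 and 20.7 against 51.9 in KO CDAHFD. The WT CDAHFD libraries had 59.5, 75.5 and 73.5 CPM. The ratio was 2.14, 2.68 and 1.82 in WT chow, KO chow and KO CDAHFD, and the log2 difference was 1.10 (SE 0.16). Reads outside the deleted part and reads from cells without Cre are included in the KO values. The 11 targets had differences from -0.57 to 0.41, Acot1 being the lowest, and the median of the list was 0.10. None of the 11 targets was counted, which in a list of this size is near the background.

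**Figure D3:**
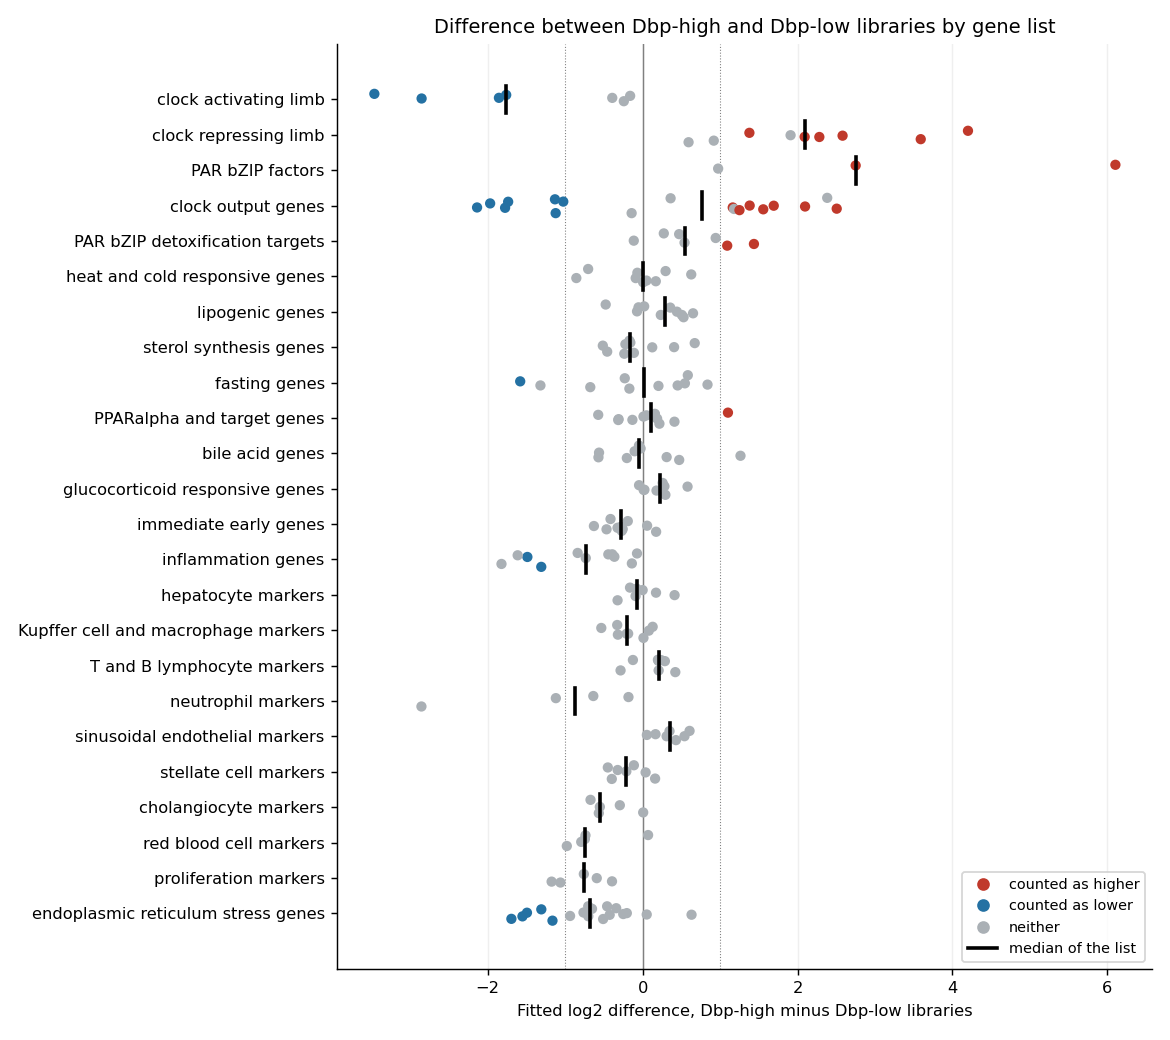
Fitted log2 difference (Dbp-high minus Dbp-low) of each gene of 24 lists, with genes counted as higher in red, as lower in blue and neither in grey, a black bar at the list median and dotted lines at -1 and 1. The clock lists spread on both sides of the limits, and the lipogenic, sterol, bile acid, immediate early and cell type marker lists hold no counted gene.

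Lists for the daily cycle of feeding, hormones and temperature were compared in the same way. None of 9 heat and cold responsive, 10 lipogenic, 10 sterol synthesis, 9 bile acid, 8 glucocorticoid responsive or 10 immediate early genes was counted in either direction, against 0.83% and 0.922% of all genes compared, and in lists of this size a count of 0 is near that background. The cold-induced RNA-binding protein gene Rbm3 had 21.7 and 29.6 CPM against 37.98 and 43.7 in WT chow, 35.98 against 54.5 in KO chow and 46.5 and 50.2 against 72.9 in KO CDAHFD, a small separation in each group with a log2 difference of 0.63 (SE 0.10). The chaperone gene Hsp90aa1 differed by -0.86 (SE 0.20). Cyp7a1, the rate-limiting enzyme of bile acid synthesis, had 71.5 and 23.7 CPM against 44.7 and 90.6 in WT chow, 93.1 against 292 in KO chow and 91.5 and 53.6 against 292 in KO CDAHFD: the kinds overlapped in WT chow, and the fitted difference was 1.26 (SE 0.37).

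The 10 fasting genes divided evenly, 5 positive and 5 negative. Of them 1 was counted as lower and none as higher, against 0.922% and 0.83% of all genes compared. Pdk4, the kinase that inhibits pyruvate dehydrogenase, was the 1 gene counted, with 22.5 and 16.2 CPM against 6.04 and 2.84 in WT chow, 57.1 against 44.8 in KO chow and 118 and 120.1 against 32.7 in KO CDAHFD and a difference of -1.58 (SE 0.30), or -0.68 with a replicate block. Cpt1a, which admits fatty acids to the mitochondrion, had 438 and 428 CPM against 693 and 735 in WT chow, 326 against 590.3 in KO chow and 376 and 299.6 against 672 in KO CDAHFD. It separated the kinds in all 3 groups, by 0.84 (SE 0.09), below the limit of 1.

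Outside the lists, the 10 largest positive differences among genes averaging 10 CPM or more were those of Mfsd2a, Cyp2a4, Hipk2, Rdh9, Hdc, Smad9, Onecut1, Rnf152, Gprin3 and Pgap1, from 1.18 to 2.36. Mfsd2a, a transporter of lysophosphatidylcholine, had 3.49 and 1.45 CPM against 38.5 and 26.8 in WT chow, 8.57 against 14.4 in KO chow and 2.86 and 4.17 against 11.7 in KO CDAHFD, a log2 difference of 2.36 (SE 0.55). In WT CDAHFD it had 45.1, 16.4 and 10.8 CPM, a wide range for libraries of 1 kind. Cyp2a4, a steroid hydroxylase, had 0.0388 and 0.252 CPM against 0.367 and 0.321 in WT chow, 68.8 against 304 in KO chow and 28.1 and 33.8 against 147 in KO CDAHFD. It was nearly absent from WT chow, where 1 library had 1 count, so that its difference of 2.13 (SE 0.18) rests on the KO groups, and its reads can be shared with Cyp2a5. Hipk2, a kinase gene, had 30.9 and 21.6 CPM against 68.3 and 48.02 in WT chow, 8.13 against 35.04 in KO chow and 29.5 and 11.9 against 44.2 in KO CDAHFD, a difference of 1.34 (SE 0.25). Hdc, histidine decarboxylase, differed by 1.24 (SE 0.23) and Onecut1, a hepatocyte transcription factor, by 1.21 (SE 0.57). The Onecut1 values in WT CDAHFD were 27.8, 2.83 and 22.7 CPM, so that libraries of 1 kind were as far apart as the kinds.

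The 10 largest negative differences included those of Loxl4, Creld2, Clpx, Tubb2a, Sdf2l1, Dhrs9, Lgalsl, Manf and Pnrc1, from -2.47 to -1.45. Loxl4, a lysyl oxidase that cross-links matrix, had 25.6 and 34.1 CPM against 1.93 and 2.38 in WT chow, 17.02 against 8.41 in KO chow and 16.4 and 13.98 against 3.996 in KO CDAHFD, a difference of -2.47 (SE 0.41). Clpx, the ATPase of the mitochondrial ClpXP protease, had 544 and 630.4 CPM against 181 and 159.7 in WT chow, 329 against 177 in KO chow and 266 and 286 against 76.3 in KO CDAHFD. Its difference was -1.60 (SE 0.14), and the 4 Dbp-high libraries were the 4 lowest of the 12. Tubb2a, a tubulin gene, had 199.8 and 196 CPM against 45.9 and 41.7 in WT chow, 406 against 259.8 in KO chow and 303 and 290.2 against 112 in KO CDAHFD. It differed by -1.58 (SE 0.21), within groups whose own levels were far from each other.

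Creld2, Sdf2l1 and Manf encode proteins of the endoplasmic reticulum. Creld2 had 177 and 77.4 CPM against 25.5 and 33.9 in WT chow, 92.8 against 25.1 in KO chow and 31.2 and 35.6 against 17.1 in KO CDAHFD, a difference of -1.69 (SE 0.25). Sdf2l1 had 137 and 72.9 CPM against 33.3 and 36.3 in WT chow, 67.7 against 25.5 in KO chow and 48.1 and 51.3 against 16.4 in KO CDAHFD, a difference of -1.55 (SE 0.15). The kinds were apart in every group, and both genes were highest in WT chow replicate 1. Manf differed by -1.49 (SE 0.15), and it shares exonic sequence with Dcaf1 and Rbm15b, which had 29.5% and 21.3% as many counts.

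**Figure D4:**
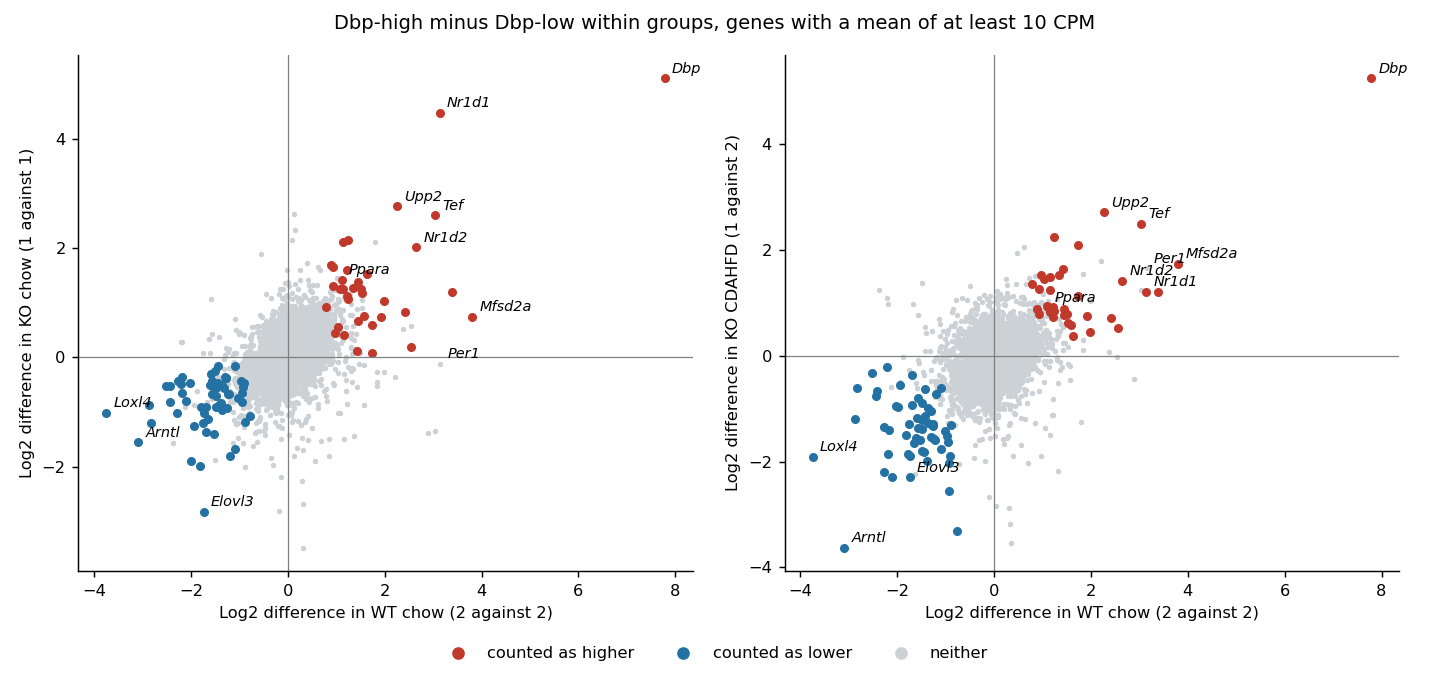
Log2 difference between Dbp-high and Dbp-low libraries within WT chow (horizontal axes) against that within KO chow (left) and KO CDAHFD (right), each point a gene with a mean of at least 10 CPM, with genes counted as higher in red and as lower in blue. Dbp, Tef and Upp2 lie at the upper right and Arntl and Loxl4 at the lower left of both panels, and the counted genes fall in these corners because the rule requires it.

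The 3 groups with both kinds share no library, so their differences can be set side by side. Over 8811 genes with a mean of at least 10 CPM, Dbp left out, the Pearson r across genes was 0.455 between WT chow and KO chow, 0.395 between WT chow and KO CDAHFD and 0.563 between KO chow and KO CDAHFD. The sign was shared by 66.1%, 59.4% and 72.1% of these genes. Genes are not independent replicates, and each of the 2 KO values rests on a single Dbp-high mouse. The SD of the differences over genes was 0.394, 0.384 and 0.374 in WT chow, KO chow and KO CDAHFD, so the differences were about as widely spread in each group.

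Markers of inflammation and of other cell types moved with the kinds in some groups. Among 11 inflammation genes, all fitted differences were negative, with a median of -0.73, and Lcn2 and Cxcl1 were counted as lower, against 0.922% of all genes compared. Without WT chow replicate 1 the differences of these genes were -0.73 and -0.88, and with a replicate block -0.44 and -0.55, all short of the limit. Lcn2, which encodes a neutrophil and acute phase protein, had 30.01 and 3.75 CPM against 2.97 and 2.52 in WT chow, 259.7 against 109 in KO chow and 378 and 432 against 275 in KO CDAHFD. The summed inflammation list was 101.9 and 1063 CPM in the Dbp-low WT chow libraries, against 90.0 to 95.8 in the Dbp-high ones, so WT chow replicate 1 stood apart. It was 638 against 354 CPM in KO chow and 817 to 861 against 593 CPM in KO CDAHFD. The part of this difference in the lower genes was not tested. In fits without WT chow replicate 1 the counts of higher and lower genes were 189 and 171.

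The hepatocyte markers (7 genes, among them Alb and Ttr) summed to 91150 to 108900 CPM in the Dbp-low and 104900 to 106300 CPM in the Dbp-high libraries of WT chow, to 80060 against 90950 CPM in KO chow and to 52870 to 62130 against 46350 CPM in KO CDAHFD. The markers were abundant in every library, and the order of the kinds was not the same in the 3 groups. The 8 Kupffer cell and macrophage markers summed to 364 to 484 against 286 to 515 CPM in WT chow, 825 against 1073 in KO chow and 798 to 922 against 568 in KO CDAHFD. The 5 proliferation markers summed to 211 against 103.8 CPM in KO chow and 121.7 to 124.0 against 64.0 CPM in KO CDAHFD, and to 5.446 to 7.997 against 5.14 to 7.94 CPM in WT chow. The 5 red blood cell markers summed to 365 to 444 against 319 to 331 CPM in WT chow, 460.2 against 251 in KO chow and 170.2 to 205 against 172 in KO CDAHFD.

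No gene of the cell type marker lists was counted, where 0.83% and 0.922% of all genes compared were, and a count of 0 in lists of 3 to 8 genes is near that background. The 7 sinusoidal endothelial differences were all positive (median 0.35). The 5 cholangiocyte differences had a median of -0.55, the 7 stellate cell differences of -0.21, the 8 lymphocyte differences of 0.21 and the 4 neutrophil differences of -0.88. The groups did not share a sign for some lists. In WT chow, KO chow and KO CDAHFD the cholangiocyte medians were -1.03, -0.84 and 0.19. In the same order the stellate cell medians were -0.38, -0.16 and 0.35, and the lymphocyte medians -0.02, 0.07 and 0.39. The endothelial and neutrophil medians kept a sign but not a size, at 0.08, 0.46 and 0.61 and at -0.52, -0.89 and -0.02. In WT chow the summed endothelial markers overlapped, at 267.5 to 271.4 against 234.8 to 336.7 CPM. The neutrophil gene Mpo had at most 0.471 CPM in any library. The pancreas markers Prss2 and Pnlip had no count in any library and Cpa1 had at most 1. Transcripts of the Y chromosome were present in all 12 libraries and Xist had at most 7 counts, as in males. The part of these cell type differences in the results above was not tested.

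The Dbp-high libraries are spread unevenly over the groups, and the labelled comparisons of clock genes were therefore run without and with the Dbp class as a further term. The class was read from these libraries, so genes that follow Dbp lose residual spread when it enters, and counts with the class are given as a description. WT CDAHFD holds no Dbp-high library, so its values with the class take the difference between kinds from the other groups. In WT chow, KO chow and KO CDAHFD that difference was 4.32, 1.16 and 0.82 for Bhlhe41, but 0.96, 0.96 and 1.01 for Hlf. An effect of the diet on Dbp itself cannot be told apart from an uneven spread of the kinds. Beside Dbp, 18 clock genes were tested. KO chow against WT chow, 3 of them fell and none rose (background 39% of genes), and 6 fell and none rose with the class (background 44.6%). WT CDAHFD against WT chow, 4 fell and none rose (background 51.1%), and with the class 8 fell and 3 rose (background 53.9%). KO CDAHFD against WT CDAHFD, none passed without the class (background 0.357%) or with it (background 0.893%). KO CDAHFD against KO chow, none passed without the class (background 6.19%), and with it 4 rose and 3 fell (background 12.7%). At an unadjusted p under 0.05, edgeR had 4 clock genes for KO CDAHFD against WT CDAHFD on group means and 2 with the class. DESeq2, at an adjusted p under 0.05, called 1 in each model, where edgeR at its adjusted p called none. For KO CDAHFD against KO chow on group means, edgeR had 2 at an unadjusted p under 0.05, and DESeq2 called 0 at an adjusted p under 0.05. The share of all genes at an unadjusted p was not taken, so these edgeR counts have no background and are not read further. Over all genes, DESeq2 on group means called 250 for KO CDAHFD against WT CDAHFD and 1903 for KO CDAHFD against KO chow. In the 8 Dbp-low libraries alone, also chosen by the measured Dbp, 2 clock genes rose and 4 fell for KO chow against WT chow (background 30.3%), 5 and 10 for WT CDAHFD against WT chow (48.7%), 0 and 0 for KO CDAHFD against WT CDAHFD (0.633%) and 1 and 1 for KO CDAHFD against KO chow (3.36%). The last of these counts, 2 in all against 7 with the class, rests on a single KO chow library.

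The shares on group means were below the background in the comparisons with WT chow, where the background itself is large. WT CDAHFD against WT chow, Per3 stood at -2.18 on the log2 scale on group means (SE 1.17, adjusted p = 0.139), by the quasi-likelihood test of edgeR, p-values adjusted by Benjamini and Hochberg. With the class in the model it was 0.55 (SE 0.26), the opposite sign. Nr1d2 went from -0.67 (SE 0.68, adjusted p = 0.437 by edgeR on group means) to 0.85 (SE 0.27), and Tef from -2.01 (SE 0.91, adjusted p = 0.0827) to 0.02 (SE 0.19). Hlf fell by 1.81 (SE 0.36, adjusted p = 0.00103 by edgeR on group means), and with the class its value was -1.25 (SE 0.15). Because the class was read from Dbp, which these genes follow, the values with the class are a description and carry no p. They also take the difference between kinds from the groups other than WT CDAHFD, so they are not diet effects freed of the Dbp class.

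**Figure D5:**
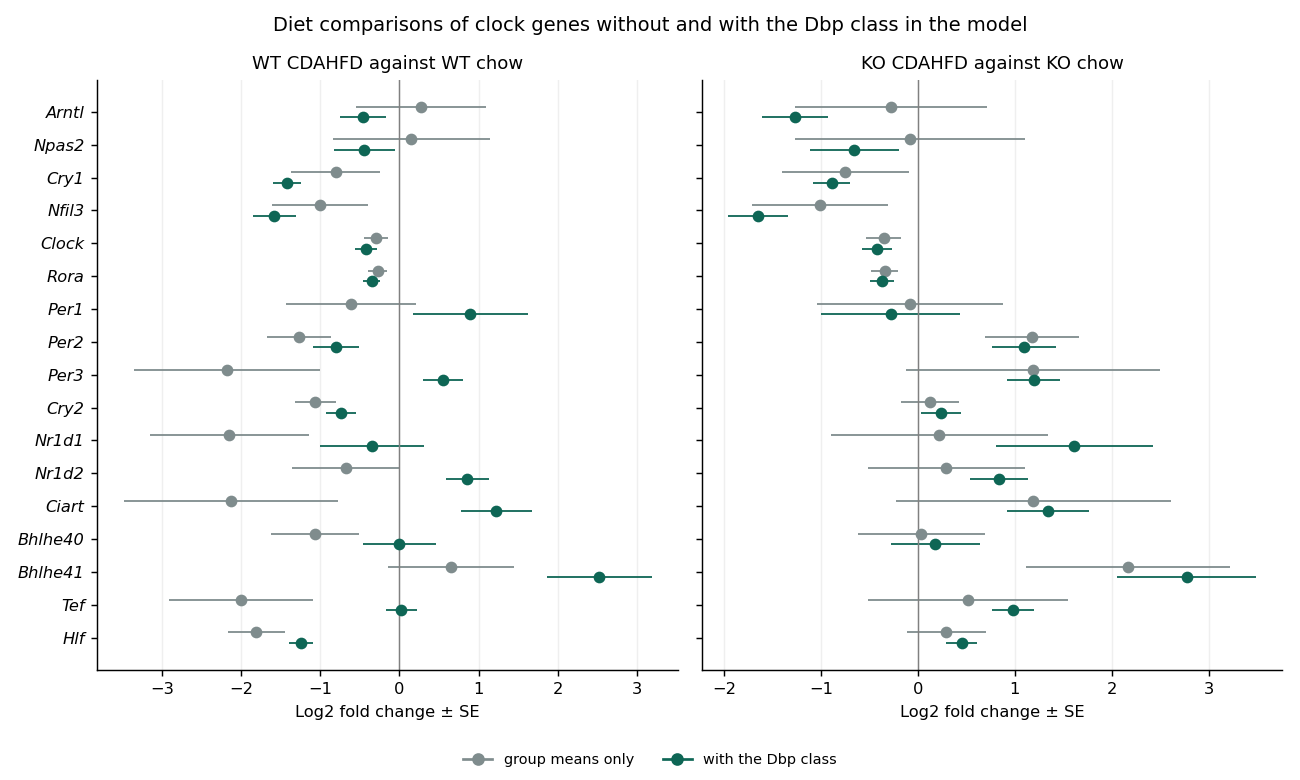
Log2 fold change with SE of clock genes, WT CDAHFD against WT chow (left) and KO CDAHFD against KO chow (right), on group means only (grey) and with the Dbp class in the model (green). The SE of Per3 falls from 1.17 to 0.26 in the left panel when the class enters, and its fold change crosses 0.

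Ppara, whose level followed the Dbp class, was also compared in this way. KO chow against WT chow, it fell by 2.68 (SE 0.50, adjusted p = 0.00111) on group means, by edgeR's quasi-likelihood test, and had -2.73 (SE 0.23) with the class. KO CDAHFD against WT CDAHFD, the log2 fold change was -0.94 (SE 0.42, adjusted p = 0.547 by edgeR) on group means and -1.36 (SE 0.19) with the class. WT CDAHFD against WT chow, it fell by 1.29 (SE 0.40, adjusted p = 0.0163 by edgeR) on group means and had -0.64 (SE 0.19) with the class. The values with the class are again a description, and those that involve WT CDAHFD take the difference between kinds from the other groups.

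Motifs were counted in the promoter windows of the genes that separated the kinds. Of the 17358 genes compared, 12142 had a window, and of the counted genes 84 of the 144 higher and 96 of the 160 lower ones. The E-box was found in 13 (15.5%) of the higher and 9 (9.38%) of the lower genes, against 11% of the genes compared. The RORE core was found in 2 (2.38%) of the higher and 8 (8.33%) of the lower genes, against 2.5%. A D-box was found in 2 higher (2.38%) and 2 lower (2.08%) genes, against 0.964%. The cAMP response element was found in 1 (1.19%) and 2 (2.08%) genes against 3.28%, and the heat shock element in 9 (10.7%) and 5 (5.21%) against 7.17%. These counts are small and were not tested.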

How the data were processed

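Poly-A selected, non-directional libraries from liver of 12 mice were sequenced on a NovaSeq instrument. The authors checked reads with FastQC 0.11.5, aligned them to GRCm38 with STAR 2.7.3a and deposited whole-number counts per gene; the counting program and annotation release are not given in the sources used here. Symbols and coordinates are those of GENCODE M21, and counts in genes without a symbol made up 0.309%. The study describes 3 mice per group, whereas the groups held 4, 3, 2 and 3 libraries, and the labels alone say that replicates are separate mice, so that p-values measure the spread between these libraries.

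The counts were scaled by TMM (factors 0.7292 to 1.258) and filtered with filterByExpr in edgeR 4.0.16 (R 4.3.3, limma 3.58.1), which kept 17358 of 55357 genes, 30104 of which had a count. Of the listed genes, Il6, Ly6g, Elane, Prss2, Cpa1, Pnlip and Xist did not pass this filter. A quasi-likelihood model with the 4 groups and the Dbp class gave the differences between kinds and their SE, with no test. CPM on the log2 scale used a prior count of 2. Labelled comparisons used edgeR's quasi-likelihood test on group means, with Benjamini-Hochberg adjustment and a threshold of 0.05, and again with the class. Alternatives covered scaling, filtering, DESeq2 1.42.0, the limit on size, the libraries used, log2 Dbp as a covariate and a replicate block. Libraries of different groups with the same number in their sample titles had correlated deviations (r over 0.1) in 3 of 15 pairs, with r from -0.242 to 0.266. The main fits used no pairing by number. Deviations from the means of such small groups are tied to each other, so this check cannot exclude a factor shared by number. All pairs within a group differed by more than sampling noise. The scripts were tested on simulated data.

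Named genes were Dbp, Ppara, the clock lists, the counted members of each other list or else its extremes of each sign, and the 10 largest differences of each sign outside the lists among counted genes with a mean of at least 10 CPM. Some genes that the rule names are not reported here. The members and lists were chosen with earlier results of these data known. Reads of near-identical genes (Cyp2a4 and Cyp2a5, Saa1 and Saa2) and of overlapping genes cannot be separated. Python 3.11.15, pandas 2.3.3 and matplotlib 3.10.9 were used for sequences and plots.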

Additional observations from a re-analysis of the deposited data

Results flagged for a closer look

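In WT chow, replicate 1 stood far from the other 3 libraries for Lcn2, at 30.01 CPM, and for Saa2, an acute phase gene, at 274.2 CPM. Its gap to the nearest library took 0.956 and 0.976 of the group's range, above Dixon's 95% critical value for 4 samples, which chance passes in about 1 in 20 groups. Of the 78 named genes examined in WT chow these 2 passed, both through the same library. That rate does not carry over to this set. Of the 78 genes, 54 had been counted for separating the Dbp-high from the Dbp-low libraries, and genes are not independent of each other.

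Some genes differed between Dbp-high and Dbp-low libraries in opposite directions in different groups, with all libraries of a group on the same side, and these contrasts between groups were not tested. Clock had log2 differences of -0.14 (WT chow), 0.128 (KO chow) and -0.705 (KO CDAHFD). In the same order Per1 had 3.15, -0.114 and 1.65. Pnpla3, a lipase gene with low counts, had -1.87 in WT chow and 0.692 in KO chow. KO chow holds 1 library of each kind, so its direction has no replicate.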

How the results depend on the processing

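The 54 named genes counted as higher or lower, Dbp among them, kept the sign of their difference in all 1080 values under the alternatives. The rule had picked them for a large difference without overlap, so a kept sign was nearly fixed in advance and is no support. Of these genes 17 went below the limit of 1 on size under some alternative, and 37 under none. Those below it were 8 with a replicate block (Lcn2 at -0.44, Cxcl1 at -0.55, Pdk4 at -0.68, Cdkn1a at -0.88, Dhrs9 at -0.89, Rdh9 at 0.90, and Cyp2a5 and Rnf152 at 0.94), 4 without WT chow replicate 1 (among them Lcn2 at -0.73 and Cxcl1 at -0.88), 4 without replicate 2 (among them Onecut1 at 0.83 and Avpr1a at -0.89), 3 without replicate 3, 1 without KO CDAHFD replicate 1 and 6 without replicate 3 (among them Slc45a3 at -0.79 and Avpr1a at -0.82). Of 1560 values of all named genes 1470 moved by less than the spread between replicates and 90 by more. Some of these values were fixed in advance. The limit of 1.5-fold leaves the fitted differences unchanged, and leaving out WT CDAHFD libraries, which are all Dbp-low, can move them only a little. The 144 higher and 160 lower genes became 147 and 158 with library size scaling, 146 and 155 with DESeq2 size factors and 147 and 160 with DESeq2 coefficients. With every gene that had a count they were 239 and 224, and with a limit of 1.5-fold they were 410 and 421. Leaving out 1 library gave 138 to 245 higher and 155 to 401 lower genes: 226 higher without WT chow replicate 2, 245 and 254 without replicate 1 and 226 and 258 without replicate 2 of KO chow, and 240 and 401 without KO CDAHFD replicate 3. Leaving out a library of KO chow, or the Dbp-high one of KO CDAHFD, removes that group from the rule. Leaving out a WT chow library leaves the rule fewer libraries to separate. Without KO chow, an alternative chosen after seeing the data, they were 170 and 204. A replicate block gave 173 and 145, and labelled counts of 5433 (KO chow against WT chow), 7797 (WT CDAHFD against WT chow), 59 (KO CDAHFD against WT CDAHFD) and 640 (KO CDAHFD against KO chow). The libraries of a block share only the number in their sample titles. The sample descriptions number them otherwise, running on from chow to CDAHFD within each genotype. For KO CDAHFD against WT CDAHFD the 62 genes became 215 with every gene that had a count, 250 with DESeq2, 155 with the Dbp class, 192 with log2 Dbp and 113 in the 8 Dbp-low libraries, and 26 to 75 when 1 library was left out, lowest without WT CDAHFD replicate 1 or KO CDAHFD replicate 2. For KO CDAHFD against KO chow the 1075 genes became 1903 with DESeq2, 2212 with the class, 1804 with log2 Dbp and 600 in the Dbp-low libraries, and 233 to 1437 when 1 library was left out, lowest without KO chow replicate 1. KO chow against WT chow gave 4320 to 7128 genes, lowest without KO chow replicate 1, and WT CDAHFD against WT chow 7299 to 8984. The causes were not tested. With 1 library left in a group, it is assumed to vary like the others. Depth limits the genes with few counts, among them Ciart (from 2) and Cyp2a4 (from 1).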

Other observations

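Of 18 genes of the endoplasmic reticulum stress response, 5 were counted as lower in the Dbp-high libraries and none as higher, against 0.922% and 0.83% of all genes compared, and 13 were not counted. The list was written after Creld2, Sdf2l1 and Manf had been seen, so it is not independent of them. Of its differences 16 were negative, and the median was -0.68. Hspa5, the main chaperone of the compartment, had 2322 and 1500.0 CPM against 622 and 845 in WT chow, 2057 against 1062 in KO chow and 990.3 and 1169 against 539 in KO CDAHFD, a log2 difference of -1.16 (SE 0.15). Hyou1, a partner of that chaperone, had 757 and 368 CPM against 146 and 184 in WT chow, 326 against 175 in KO chow and 190.0 and 188 against 98.7 in KO CDAHFD, a difference of -1.31 (SE 0.22). The Dbp-high libraries were lower in each group for both, and without WT chow replicate 1 the Hspa5 difference was -0.99. Herpud1, a component of protein degradation at the reticulum, was the most positive, at 0.63 (SE 0.29), and the chaperone gene Dnajb9 had 0.05. The summed list was 6942 to 10040 CPM against 4654 to 5749 in WT chow, 7288 against 4611 in KO chow and 4731 to 5330 against 2912 in KO CDAHFD, and 4243 to 4845 in WT CDAHFD.

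Hnf4a, G6pc and Clec4f were not counted and were chosen after their values were seen. Hnf4a, a master regulator of hepatocytes, had 654 and 547 CPM against 998 and 1152 in WT chow, 384 against 491 in KO chow and 459 and 439.9 against 381 in KO CDAHFD, so the Dbp-high libraries were higher in WT chow and KO chow and lower in KO CDAHFD. G6pc, the enzyme that releases glucose, had 1429 and 550.0 CPM against 972 and 1266 in WT chow, 407 against 363 in KO chow and 232 and 203 against 23.8 in KO CDAHFD. Its kinds overlapped in WT chow, and the Dbp-high library was the lower in both KO groups. The macrophage marker Clec4f had 166 and 135 CPM against 168 and 102 in WT chow, 204 against 246 in KO chow and 139.9 and 130.2 against 34.1 in KO CDAHFD, and its kinds also overlapped in WT chow. Each of the 3 genes had its lowest value of the 12 libraries in KO CDAHFD replicate 3, and the differences between groups were not tested.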
